A study of Homo sapiens with 192 samples.

Results

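The 10 genes described here encode sensors of nucleic acids in the cytosol and the endosome and the proteins next to them, and they were followed in 4 human colorectal cancer (CRC) cell lines grown in 2D and in 3D. They were the cytosolic RNA receptors DDX58 (RIGI), IFIH1 and DHX58, their adaptor MAVS, the DNA sensor MB21D1 (CGAS) and its partner TMEM173 (STING1), the endosomal receptor TLR3, the double-stranded RNA binding proteins EIF2AK2 and ADAR, and the transcription factor IRF3. The list was chosen for what the products do, but with earlier results of these data known. All 10 genes were found by Ensembl identifier among the 58243 genes listed in the deposited counts. All 10 passed the filter on low counts that left 19387 tested genes, but MB21D1 passed it through HT29 alone, and DHX58 and TLR3 passed it through lines other than LS513. All 4 are established lines, of which HT29 and LS513 are of the microsatellite stable kind and the other two of the instable kind. Each was grown in 2D and in 3D without any named treatment, and 3 libraries of poly(A)-selected RNA were sequenced per line and growth condition, which gave 8 groups and 24 libraries. HCT116 was kept in another medium than the other lines, so line and medium cannot be told apart. The sources used here state neither how the 3D cultures for RNA were made nor whether the 3 libraries of a group came from separate cultures, so the p-values measure the spread between libraries, which may be technical.

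Cells recognise foreign or misplaced nucleic acids with a small set of receptors. RIG-I, the product of DDX58, and MDA5, the product of IFIH1, bind double-stranded RNA in the cytosol and signal through MAVS on mitochondria, and LGP2, the product of DHX58, modulates both. The enzyme cGAS makes the messenger cGAMP on cytosolic DNA, and cGAMP activates STING. TLR3 reads double-stranded RNA in endosomes. These routes converge on IRF3, which turns on interferon genes. PKR, the product of EIF2AK2, halts translation when it binds double-stranded RNA, and ADAR edits adenosines in such RNA and thereby keeps the cell's own transcripts from being sensed. Several of these genes are themselves induced by interferon.

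Library totals ran from 18723942 to 34277421 counts, with the lowest total in replicate 3 of HT29 in 2D, and a floor of 3 counts per library was taken as the limit of detection. Levels are given in CPM (counts scaled to a common library size on the TMM scale), and levels of different genes are compared only as CPM per kb of exonic sequence. The mitochondrial share of the counts was 6.40% in replicate 1 of HCT116 in 3D and between 1.14% and 3.48% in the other 23 libraries. Epithelial markers were above the floor in every group, with 8 of 9 in HCT116, where CDH17 was not, and 9 of 9 in the other lines. Some were low, with at most 9 counts of VIL1 per library in HCT116. KRT20 had at most 23 counts per library in HCT116 and 37 in LS174T in 2D. Of 9 immune markers, PTPRC of leukocytes and CD3E of T cells were at or under 2 counts in every library. Others were above the floor, 2 of 9 in LS513 and up to 6 of 9 in HT29 and HCT116. Among them were LYZ (1312 to 2660 CPM) and CD14 (5.04 to 15.1 CPM) in HT29, and CD68 with up to 91.8 CPM in LS513 in 3D. Fewer cells of a kind and less RNA per cell cannot be told apart in such bulk libraries.

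The members lie apart in the genome (GRCh38, GENCODE 29 gene bounds). DDX58 (ENSG00000107201) is at chr9:32455705-32526324, IFIH1 (ENSG00000115267) at chr2:162267079-162318703, DHX58 (ENSG00000108771) at chr17:42101404-42112733 and MAVS (ENSG00000088888) at chr20:3846799-3876123. MB21D1 (ENSG00000164430) is at chr6:73413515-73452276, TMEM173 (ENSG00000184584) at chr5:139475534-139482935 and TLR3 (ENSG00000164342) at chr4:186069152-186088069. EIF2AK2 (ENSG00000055332) is at chr2:37099210-37157065, ADAR (ENSG00000160710) at chr1:154582057-154628013 and IRF3 (ENSG00000126456) at chr19:49659569-49665875. MAVS and TLR3 are on the plus strand and the others on the minus strand. No exonic base of a member is shared with another gene on the same strand. On the opposite strand, 19.3% of the exonic bases of IRF3 are shared with BCL2L12, 4.33% of MB21D1 with DDX43 and 4.06% of EIF2AK2 with GPATCH11 and AC007899.1, and the counting options that would show how such reads were assigned are not given in the sources used here. The counts are per gene, so the isoforms of ADAR, of which the long form is the interferon-induced one, were not separated.

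Interferon-responsive promoters often carry the core of the interferon-stimulated response element (ISRE), a GAAA followed after 2 bases by another GAAA. RefSeq windows (GRCh38.p14) were found for DDX58, IFIH1, MAVS, TLR3, EIF2AK2 and ADAR, the last with 3 annotated starts, and 250 bases before and 30 after each start were searched on both strands. The core was present in the windows of 3 of the 6 genes, IFIH1, TLR3 and EIF2AK2, against 3.39% of 35116 windows of the same length. DDX58 held a variant with 1 base between the repeats, a spacing that was searched after its sequence had been seen and that occurs in 2.96% of all windows. The 4 windows with a match are shown because 3 of these genes, DDX58, IFIH1 and EIF2AK2, were among those that rose in HCT116 below. They read 5′ to 3′ on the strand of the gene, with the matches in capitals.
DDX58, chr9:32526167-32526446, minus strand: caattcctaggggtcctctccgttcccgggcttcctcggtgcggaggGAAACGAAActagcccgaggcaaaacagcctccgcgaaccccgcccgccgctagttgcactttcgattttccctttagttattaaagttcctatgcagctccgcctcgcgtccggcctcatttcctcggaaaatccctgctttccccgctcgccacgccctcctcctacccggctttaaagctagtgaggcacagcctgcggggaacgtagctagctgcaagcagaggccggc
IFIH1, chr2:162318655-162318934, minus strand: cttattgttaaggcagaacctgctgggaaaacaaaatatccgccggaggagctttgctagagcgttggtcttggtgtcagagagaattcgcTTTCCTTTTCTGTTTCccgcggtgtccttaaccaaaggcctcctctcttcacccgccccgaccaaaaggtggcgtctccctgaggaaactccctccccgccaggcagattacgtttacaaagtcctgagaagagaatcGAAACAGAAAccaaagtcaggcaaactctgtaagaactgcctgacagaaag
TLR3, chr4:186068906-186069185, plus strand: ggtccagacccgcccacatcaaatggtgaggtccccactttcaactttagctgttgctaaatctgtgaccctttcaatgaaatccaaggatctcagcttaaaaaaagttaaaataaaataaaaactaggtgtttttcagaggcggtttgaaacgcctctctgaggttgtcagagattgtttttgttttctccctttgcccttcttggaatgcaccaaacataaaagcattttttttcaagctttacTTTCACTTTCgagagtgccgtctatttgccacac
EIF2AK2, chr2:37156951-37157230, minus strand: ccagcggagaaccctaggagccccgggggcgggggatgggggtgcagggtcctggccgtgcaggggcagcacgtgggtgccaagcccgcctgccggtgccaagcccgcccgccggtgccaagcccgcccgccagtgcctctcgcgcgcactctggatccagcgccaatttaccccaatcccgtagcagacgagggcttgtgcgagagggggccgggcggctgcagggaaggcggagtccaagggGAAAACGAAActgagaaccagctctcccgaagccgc
In IFIH1 the capitals cover a pair of overlapping matches on the opposite strand, from -159 to -144 counted from the start, and 1 match on the strand of the gene from -21 to -12. The matches of TLR3 (from -4 to 6, opposite strand) and EIF2AK2 (from -6 to 4) span the annotated start, and the variant of DDX58 lies from -203 to -195. MAVS and the 3 ADAR windows held neither spacing. A match is a description of letters and does not show that a factor binds there.

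**Figure D1:**
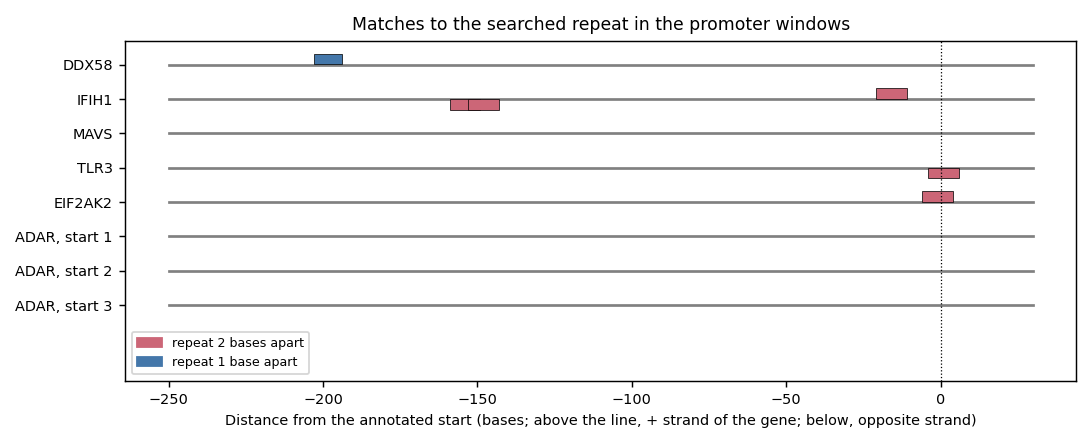
Promoter windows of the 6 members found in RefSeq, from 250 bases before to 30 after each annotated start, with the distance from the start in bases on the horizontal axis. Boxes above a line are matches on the strand of the gene and boxes below it are on the opposite strand, red for repeats 2 bases apart and blue for 1 base apart, and they are present in IFIH1, TLR3, EIF2AK2 and DDX58.

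Per kb of exonic sequence, ADAR and IRF3 were the highest members in every group except HCT116 in 2D, and TLR3 was among the lowest in each line. In 2D, ADAR had a mean of 52.0 ± 0.761 CPM per kb (SD, n = 3) in LS513, and values of 31.4 to 43.2 CPM per kb in the other lines. IRF3 led in HT29 with 44.8 ± 2.66 CPM per kb, and in HCT116 MAVS stood above it with 17.1 ± 3.11 against 12.5 ± 1.46 CPM per kb. EIF2AK2 lay between 6.29 and 7.10 CPM per kb in the 4 lines in 2D. The RNA receptors were lower, with IFIH1 between 1.46 and 4.33 and DDX58 between 1.12 and 2.14 CPM per kb. TLR3 stayed between 0.00479 and 0.727 CPM per kb in 2D. The map of mean levels shows which single genes were at the floor, since MB21D1 was above it in HT29 alone, and neither DHX58 nor TLR3 was above it in LS513.

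**Figure D2:**
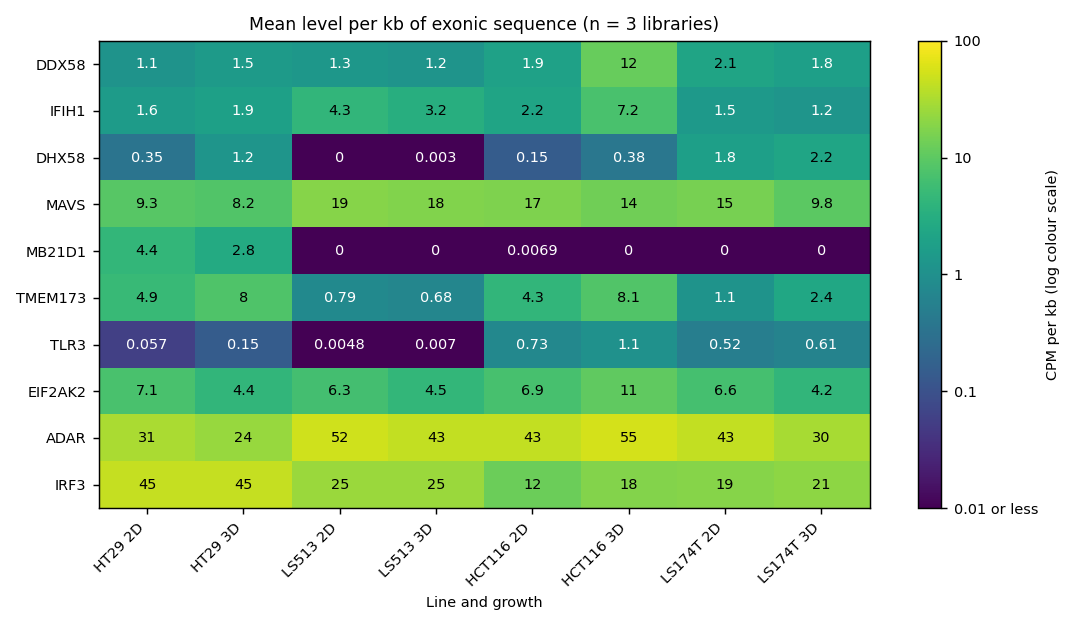
Mean level of each sensor gene (rows) in each line and growth condition (columns) in CPM per kb of exonic sequence, n = 3 libraries, with colour on a log scale. ADAR is brightest in all groups but HT29, where IRF3 is, and the darkest fields are MB21D1 outside HT29 and DHX58 and TLR3 in LS513.

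MB21D1, the gene of the DNA sensor cGAS, separated HT29 from the other lines. HT29 gave 483, 589 and 326 counts in its 3 libraries in 2D, which are 16.6, 20.3 and 17.9 CPM. In HCT116, 1 library in 2D had 3 counts, and the other 17 libraries of LS513, HCT116 and LS174T had 0 counts. In 2D the level in HT29 was at least 189-fold higher than in LS513 and at least 203-fold higher than in LS174T, against a floor of 3 counts per library. Its ratio to HCT116 was 604, with a 95% exact interval from 206 to 2930 that covers counting error only. A count of 0 does not show that the gene is silent, and the floor of 3 counts lay between 0.0853 and 0.109 CPM in these 18 libraries.

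TMEM173, which encodes the cGAMP receptor STING, was measured in all 24 libraries. In 2D it was at 22.3, 14.9 and 19.8 CPM in HT29 and at 15.8, 17.2 and 16.5 CPM in HCT116, which were not told apart (adjusted p = 0.417, 95% confidence interval of the log2 difference from -0.24 to 0.65). LS174T had 4.54, 4.49 and 4.12 CPM and LS513 had 3.35, 3.20 and 2.63 CPM. These 2 lines did not overlap, but their difference missed the threshold (log2 -0.52 for LS513 over LS174T, adjusted p = 0.0749). HT29 was above LS513 by 2.63 on the log2 scale (SE 0.24, adjusted p = 1.28e-09) and HCT116 was above LS174T by 1.91 (SE 0.23, adjusted p = 1.06e-07). LS513, HCT116 and LS174T therefore carried TMEM173 reads with at most 3 counts of MB21D1 per library.

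The 3 RIG-I-like receptor genes were each ordered differently over the lines in 2D. DDX58 was highest in LS174T and HCT116, at 8.10, 10.1 and 9.84 CPM and at 8.28, 8.94 and 8.12 CPM, which did not differ beyond their spread (adjusted p = 0.388). It was at 6.02, 5.32 and 5.67 CPM in LS513 and at 4.56, 4.68 and 5.42 CPM in HT29, again without a called difference (adjusted p = 0.232). The step from HCT116 down to LS513 was called (log2 0.58, SE 0.15, adjusted p = 0.00152). IFIH1 was led by LS513 with 22.0, 22.9 and 21.5 CPM, above the 11.0, 12.6 and 9.46 CPM of HCT116 by 1.00 on the log2 scale (SE 0.18, adjusted p = 3.12e-05). HT29 (9.16, 6.26 and 9.04 CPM) and LS174T (6.58, 7.62 and 8.12 CPM) overlapped and were not told apart (adjusted p = 0.580). DHX58 was called in all 6 pairs of lines, with 5.95, 8.16 and 6.58 CPM in LS174T, 1.92, 0.929 and 1.21 CPM in HT29, 0.272, 0.633 and 0.802 CPM in HCT116, and 0 counts in the 3 libraries of LS513. The level of DHX58 in LS174T was at least 71.4-fold higher than in LS513 against a floor of 3 counts per library.

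TLR3 differed between the lines over a wide range. HCT116 had 5.10, 5.55 and 4.01 CPM in 2D and LS174T had 3.14, 3.41 and 4.00 CPM, which did not overlap but missed the threshold (adjusted p = 0.0574). HT29 had 10, 9 and 9 counts, or 0.343, 0.310 and 0.493 CPM, and was under LS174T (log2 -3.24, SE 0.30, adjusted p = 1.37e-09). In LS513 the 6 libraries had 3 counts or fewer, and the ratio of HCT116 to LS513 in 2D was 157, with a 95% exact interval from 53.4 to 764 for counting error only.

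Of the double-stranded RNA binding proteins, the adaptor and IRF3, EIF2AK2 was called in no pair of lines and IRF3 in every pair. EIF2AK2, the only member with no called pair out of 6, was at 72.7, 74.8 and 81.6 CPM in HT29, 67.2, 67.4 and 68.1 CPM in LS513, 83.8, 82.8 and 55.9 CPM in HCT116 and 70.9, 71.5 and 70.3 CPM in LS174T, and the 95% intervals of the 6 differences lay between -0.50 and 0.54 on the log2 scale. ADAR was lower in HT29 (311, 291 and 310 CPM) than in LS174T (412, 406 and 421 CPM; log2 -0.44, SE 0.13, adjusted p = 0.00599), while LS513, HCT116 and LS174T were not told apart (adjusted p between 0.0714 and 0.909). MAVS was also lowest in HT29, at 109, 105 and 114 CPM against 176, 169 and 187 CPM in LS174T (log2 -0.70, SE 0.14, adjusted p = 1.08e-04). IRF3 was called in all 6 pairs, falling from 166, 181 and 162 CPM in HT29 through LS513 (97.5, 94.1 and 92.1 CPM) and LS174T (79.2, 67.8 and 68.7 CPM) to HCT116 (44.7, 43.7 and 53.7 CPM). Over the 10 members and 6 pairs, 40 of 60 tests were called, 8 for HT29 with each other line, 6 for LS513 with HCT116 and with LS174T, and 4 for HCT116 with LS174T. Such calls were common, since they covered 60.6% of all tested genes for HT29 and LS513, 68.8% for HT29 and HCT116, 64.6% for HT29 and LS174T, 68.3% for LS513 and HCT116, 57.6% for LS513 and LS174T and 68.3% for HCT116 and LS174T. MB21D1 passed the filter through HT29 alone, so its 3 calls are not independent of the filter. Its other pairs were at the floor and could not be called. The calls of DHX58 and TLR3 against LS513 are likewise of genes kept through other lines. The pairs share libraries and are not independent.

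**Figure D3:**
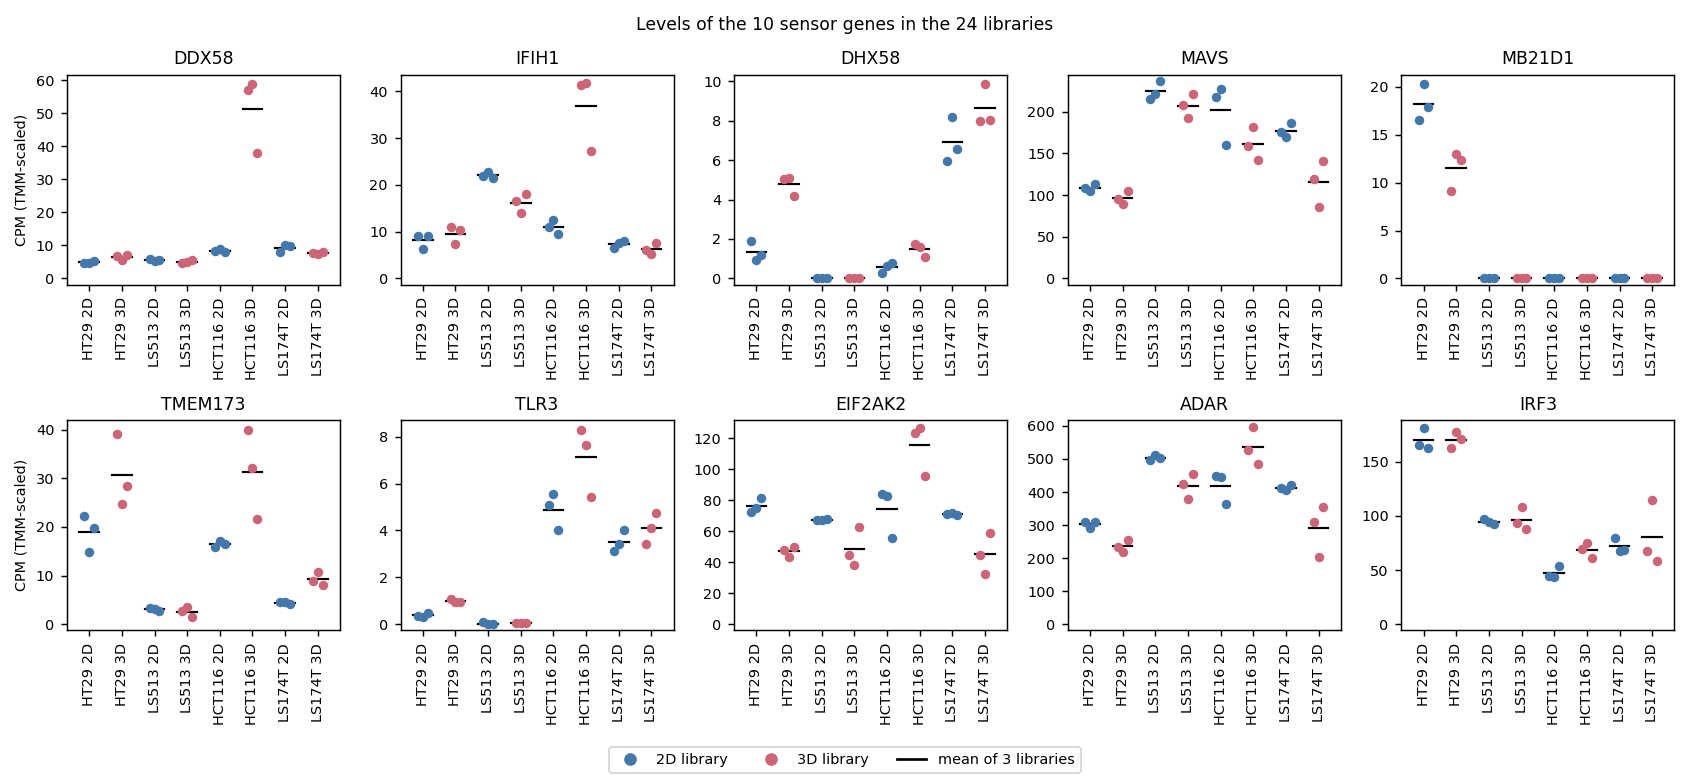
CPM of the 10 sensor genes in each of the 24 libraries, 1 panel per gene with its own linear axis, where points are libraries (blue 2D, red 3D) and bars are means of 3. DDX58 and IFIH1 rise in the 3D libraries of HCT116 above every other group, and the third of these libraries lies under the other two.

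In HCT116 the sensor genes that were called all went up in 3D. Of the 9 members above the floor, 7 were higher and 0 lower, where 16.8% of all tested genes were called higher and 12.3% lower. The median log2 of 3D over 2D was 0.64 over these 9 members and 0.01 over all tested genes. At an unadjusted p under 0.05, edgeR and DESeq2 each gave 8 higher and 1 lower, MAVS, and with adjustment DESeq2 called 8 higher and 0 lower. The shares of all genes without adjustment or with DESeq2 were not counted, so these numbers have no background. DDX58 rose the most, from 8.28, 8.94 and 8.12 CPM in 2D to 57.2, 59.0 and 37.9 CPM in 3D, a log2 change of 2.61 (SE 0.15, adjusted p = 1.65e-11). IFIH1 went from 11.0, 12.6 and 9.46 CPM to 41.4, 41.8 and 27.3 CPM, or 1.74 on the log2 scale (SE 0.18, adjusted p = 2.61e-07). DHX58 had 9, 22 and 25 counts in 2D and 52, 49 and 33 counts in 3D, and rose by 1.38 (SE 0.32, adjusted p = 0.00292). All 3 receptor genes had every 3D library above every 2D library.

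Replicate 3 of HCT116 in 3D was the lowest of its group for all 9 members, and the libraries that were high, replicates 1 and 2, had mitochondrial shares of 6.40% and 2.45% against 1.66% in replicate 3. Leaving out 1 library at a time kept the log2 change of DDX58 between 2.47 and 2.76 and that of IFIH1 between 1.61 and 1.89, with both called each time. The proportions of the receptor transcripts shifted as well. DDX58 and IFIH1 were close to parity per kb in 2D, with ratios of 0.881, 0.833 and 1.01 in the 3 libraries, and DDX58 was ahead in 3D with ratios of 1.62, 1.66 and 1.63. Replicate 3 thus had a lower level of both in a like proportion. With 3 libraries against 3, an exact permutation test of such a ratio cannot go below p = 0.1, so the ratios are given as values only.

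**Figure D4:**
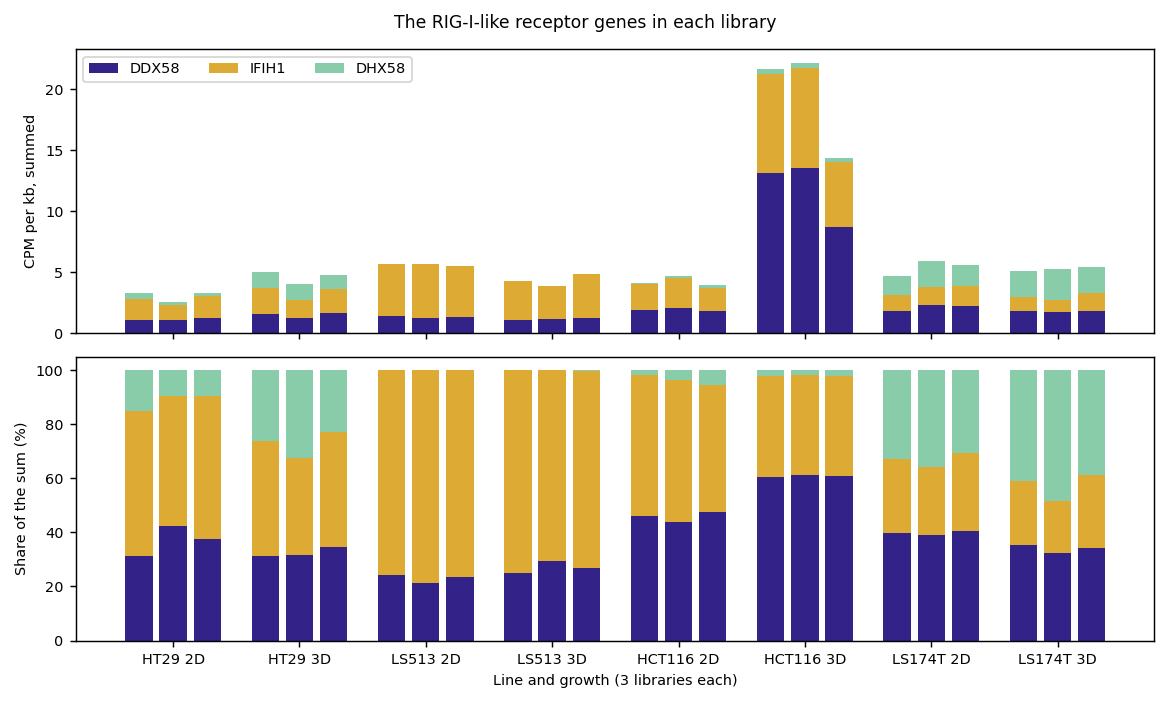
DDX58, IFIH1 and DHX58 in each library, stacked as CPM per kb of exonic sequence (top) and as a share of their sum in percent (bottom), with 3 bars per line and growth condition. The sum reaches 14.3 to 22.2 CPM per kb in HCT116 in 3D against 2.54 to 5.93 in all other groups, and DHX58 is missing in LS513 apart from 1 count.

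Downstream of the receptors in HCT116, IRF3 rose and MAVS was not called. IRF3 went from 44.7, 43.7 and 53.7 CPM to 69.1, 74.8 and 61.1 CPM (log2 0.53, SE 0.16, adjusted p = 0.0150). MAVS had 218, 227 and 159 CPM in 2D and 159, 182 and 142 CPM in 3D, with a log2 difference of -0.33 (SE 0.14, adjusted p = 0.0792) and overlapping groups. The difference in MAVS was called when 2D replicate 3 or 3D replicate 2 was left out (adjusted p between 0.00817 and 0.0452) and with every gene of at least 1 count kept (0.0155). It was also called with the replicate block (adjusted p = 0.0458), and the range over all alternatives was 0.00817 to 0.304. TMEM173 rose from 15.8, 17.2 and 16.5 CPM to 40.0, 32.1 and 21.6 CPM (log2 0.92, SE 0.21, adjusted p = 0.00237) in a line where MB21D1 was at the floor in both growth conditions. TLR3 was at 5.10, 5.55 and 4.01 CPM in 2D and at 8.28, 7.64 and 5.42 CPM in 3D, which missed the threshold (log2 0.54, SE 0.21, adjusted p = 0.0604) and passed it with DESeq2 (adjusted p = 0.0386) and without 3D replicate 3 (0.0256, against 0.0256 to 0.245 over all alternatives). The call of IRF3 was lost without 2D replicate 1 or 2 or 3D replicate 2 (adjusted p between 0.0663 and 0.0780, with 4.95e-04 to 0.0780 over all alternatives).

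The double-stranded RNA binding proteins moved less in HCT116. EIF2AK2 rose from 83.8, 82.8 and 55.9 CPM to 123, 127 and 95.9 CPM (log2 0.64, SE 0.18, adjusted p = 0.00931), and ADAR from 448, 446 and 363 CPM to 528, 597 and 483 CPM (log2 0.36, SE 0.13, adjusted p = 0.0486). Both groups of each gene were apart, with the lowest value in replicate 3 of 2D. The call of EIF2AK2 was lost without 2D replicate 3 or 3D replicate 2 (adjusted p between 0.0565 and 0.0692, and between 2.05e-05 and 0.0692 over all alternatives). That of ADAR was lost without any 1 of the 2D libraries or without 3D replicate 1 or 2 (adjusted p between 0.0686 and 0.252). It was also lost with the replicate block (0.0505) and with only the libraries of HCT116 (0.0516), and the range over all alternatives was 0.0296 to 0.252. MAVS, EIF2AK2 and ADAR are the members with the most exonic sequence, 11771, 10753 and 9691 bases, and the median log2 of 3D over 2D of the 2324 tested genes with at least 9000 exonic bases was -0.13 in HCT116. The part of exonic length in the differences of these 3 genes was not tested. In 2D, replicate 3 was low for such genes, with a median deviation of -0.16 (log2) from its group mean.

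The summed level of the 9 immune markers also rose in HCT116, from between 10.9 and 14.5 CPM in 2D to between 36.8 and 49.0 CPM in 3D. CD68, a lysosomal protein of macrophages that epithelial lines also express, made up nearly all of it, with 35.9 to 47.0 CPM in 3D. PTPRC, CD3E and FCGR3A had 0 counts in the 6 libraries of HCT116. The same sum rose in 3D in the other lines too, from between 1328 and 1438 to between 2438 and 2689 CPM in HT29 (of which LYZ was 2405 to 2660 CPM), from between 20.7 and 22.3 to between 65.4 and 96.4 CPM in LS513 and from between 3.95 and 6.19 to between 8.998 and 11.2 CPM in LS174T. CD14 rose in HT29 too, from a mean of 6.11 CPM in 2D to 12.65 CPM in 3D (log2 1.04, adjusted p = 0.00721). Of the 6 fibroblast markers, COL1A1 and PDGFRB were above the floor in HCT116 and the other 4 were not. Their summed level was between 13.1 and 15.2 CPM in 2D and between 10.2 and 22.1 CPM in 3D, nearly all of it COL1A1, and between 0.341 and 1.10 CPM in the other lines. Of the 5 endothelial markers, 2 were above the floor in HCT116 in 2D, with a summed level of 0.423 to 1.41 CPM, and 5 in 3D, with 1.34 to 1.995 CPM. Among them VWF (log2 1.28, adjusted p = 0.0302) and ENG (log2 2.90, adjusted p = 0.0185) were called higher in HCT116 in 3D, at mean levels of at most 0.640 CPM. VWF was also called in LS513 (log2 3.33, adjusted p = 4.60e-04), and the endothelial sum in HT29, 15.6 to 18.4 CPM in 2D and 14.7 to 23.9 CPM in 3D, was mostly ENG, which was not called there. The part of the immune, fibroblast and endothelial markers in the sensor results was not tested.

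HT29 responded in both directions. All 10 members were above the floor there, and 4 were called higher in 3D and 3 lower, where 21.1% of all tested genes were called higher and 19.6% lower. DHX58 rose from 1.92, 0.929 and 1.21 CPM to 5.04, 5.08 and 4.17 CPM (log2 1.80, SE 0.28, adjusted p = 3.42e-05), and TLR3 from 10, 9 and 9 counts to 35, 27 and 26 counts (log2 1.40, SE 0.34, adjusted p = 0.00208). Every 3D library of these genes was above every 2D library, and both calls held under all 12 alternatives. The share of DHX58 among the 3 receptor transcripts per kb went from 9.42% to 14.96% in 2D to 22.9% to 32.6% in 3D. DDX58 rose less, from 4.56, 4.68 and 5.42 CPM to 6.82, 5.57 and 7.11 CPM (log2 0.42, SE 0.16, adjusted p = 0.0348), and IFIH1 was not called with 9.16, 6.26 and 9.04 CPM in 2D and 11.0, 7.43 and 10.3 CPM in 3D (log2 0.24, SE 0.19, adjusted p = 0.329). The call of DDX58 was lost without 2D replicate 1 or 2 or 3D replicate 1 or 4 (adjusted p between 0.0725 and 0.0834). It was also lost with the replicate block (adjusted p = 0.257), and the range over all alternatives was 0.0110 to 0.257. In HT29 this block compares growth within replicates 1 and 3 only, since 2D replicate 2 and 3D replicate 4 have no partner.

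The DNA-sensing pair moved apart in HT29. MB21D1 fell from 16.6, 20.3 and 17.9 CPM to 9.17, 13 and 12.3 CPM (log2 -0.67, SE 0.22, adjusted p = 0.0308), while TMEM173 rose from 22.3, 14.9 and 19.8 CPM to 39.0, 24.6 and 28.4 CPM (log2 0.69, SE 0.21, adjusted p = 0.0124). The 2D and 3D libraries did not overlap for either gene. The call of MB21D1 was lost without any 1 of the 2D libraries or without 3D replicate 1 or 4 (adjusted p between 0.0584 and 0.147, and between 0.00304 and 0.147 over all alternatives). That of TMEM173 was lost without 2D replicate 2 or 3D replicate 1 (adjusted p between 0.0628 and 0.0884, and between 2.14e-05 and 0.0884 over all alternatives). Both calls were also lost with the replicate block (adjusted p = 0.0712 for MB21D1 and 0.067 for TMEM173). IRF3, the shared end of these routes, was at 166, 181 and 162 CPM in 2D and at 162, 177 and 171 CPM in 3D, with a 95% interval of the log2 difference from -0.32 to 0.33.

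EIF2AK2 and ADAR fell in HT29. EIF2AK2 went from 72.7, 74.8 and 81.6 CPM to 47.9, 43.2 and 49.8 CPM (log2 -0.70, SE 0.18, adjusted p = 0.00344), called under all 12 alternatives. ADAR went from 311, 291 and 310 CPM to 234, 219 and 255 CPM (log2 -0.37, SE 0.13, adjusted p = 0.0329), and its call was lost with the size factors of DESeq2 (adjusted p = 0.0515), with DESeq2 (adjusted p = 0.0527) and without any 1 of the 6 libraries (adjusted p between 0.0549 and 0.187, and between 0.00238 and 0.187 over all alternatives). MAVS, with 109, 105 and 114 CPM in 2D and 94.7, 89.3 and 105 CPM in 3D, was not called (log2 -0.18, SE 0.14, adjusted p = 0.325). The 2324 tested genes with at least 9000 exonic bases had a median log2 of -0.24 in HT29, against 0.00 for all tested genes, and MAVS lay above this value and ADAR and EIF2AK2 under it.

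**Figure D5:**
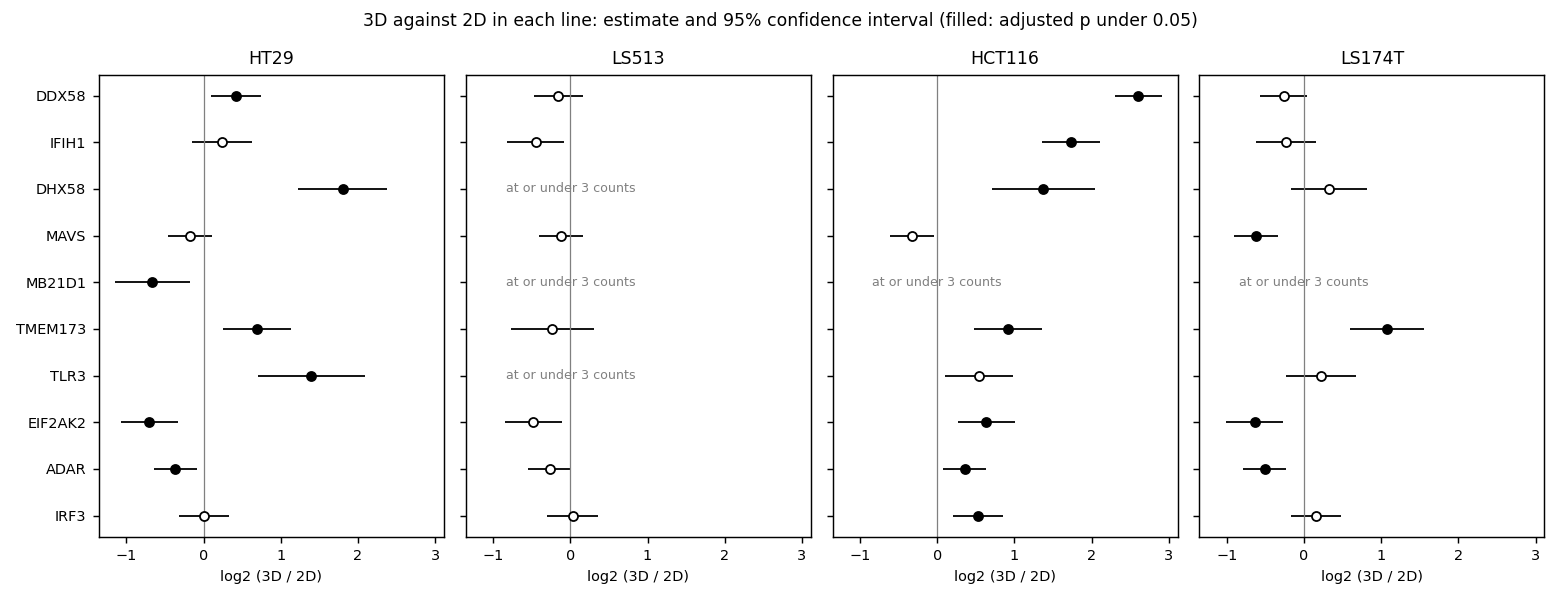
Log2 of 3D over 2D for each sensor gene (rows) in each line (panels), with points for the estimate and bars for its 95% confidence interval from the fit of all 24 libraries, filled where the adjusted p is under 0.05. HCT116 has 7 filled points, all to the right of 0, HT29 has 4 to the right and 3 to the left, LS174T has 1 and 3, and LS513 has none.

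LS174T shared the rise of TMEM173 and the fall of EIF2AK2 and ADAR. Of its 9 members above the floor, 1 was called higher and 3 lower, where 13.1% of all tested genes were called higher and 9.15% lower. TMEM173 rose from 4.54, 4.49 and 4.12 CPM to 8.95, 10.8 and 8.08 CPM (log2 1.08, SE 0.23, adjusted p = 0.00221) and was called under all 12 alternatives. MAVS fell from 176, 169 and 187 CPM to 119, 85.9 and 141 CPM (log2 -0.62, SE 0.14, adjusted p = 0.00299). EIF2AK2 fell from 70.9, 71.5 and 70.3 CPM to 44.6, 32.7 and 58.8 CPM (log2 -0.64, SE 0.18, adjusted p = 0.0137), and ADAR from 412, 406 and 421 CPM to 311, 204 and 355 CPM (log2 -0.51, SE 0.13, adjusted p = 0.00967). The 3 libraries in 3D were all under those in 2D for these genes, and replicate 2 was the lowest each time.

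That library stood apart in LS174T. The long genes had a median deviation of -0.23 (log2) from the group mean in replicate 2 of 3D and of 0.19 in replicate 3, and the median log2 of 3D over 2D of long genes was -0.23. Without replicate 2 of 3D, EIF2AK2 had a log2 difference of -0.45 (adjusted p = 0.109, and between 8.79e-06 and 0.109 over all alternatives) and ADAR one of -0.30 (adjusted p = 0.0662, and between 1.90e-04 and 0.115 over all alternatives), so both calls rested on it. MAVS stayed called without it (log2 -0.44). With only the 6 libraries of LS174T in the fit, MAVS (adjusted p = 0.0592), EIF2AK2 (0.0751) and ADAR (0.115) were not called. IRF3 went the other way in this library, with 67.9, 114 and 58.6 CPM in 3D against 79.2, 67.8 and 68.7 CPM in 2D, and its log2 difference of 0.16 (adjusted p = 0.502) turned to -0.18 without it. The part of exonic length in these differences was not tested.

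The RNA receptors of LS174T were not called. DDX58 was at 8.10, 10.1 and 9.84 CPM in 2D and at 7.85, 7.44 and 8.02 CPM in 3D (95% interval of the log2 difference from -0.57 to 0.04), and IFIH1 at 6.58, 7.62 and 8.12 CPM and at 6.16, 5.21 and 7.52 CPM (from -0.63 to 0.16). DHX58 had 5.95, 8.16 and 6.58 CPM in 2D and 7.97, 9.84 and 8.05 CPM in 3D (from -0.17 to 0.81), and TLR3 3.14, 3.41 and 4.00 CPM and 3.43, 4.12 and 4.73 CPM (from -0.24 to 0.67). The mean of DHX58 in LS174T in 3D, 8.62 CPM, was the highest of the 8 groups.

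LS513 gave 0 called members, while 13.7% of all tested genes were called higher and 9.90% lower. Of the 7 members above the floor, 3 had no overlap between 2D and 3D, and all 3 were lower in 3D. The share of all tested genes without overlap was not counted, so this number has no background. IFIH1 had 22.0, 22.9 and 21.5 CPM in 2D and 16.6, 14.0 and 18.1 CPM in 3D (log2 -0.45, SE 0.18, adjusted p = 0.0729). EIF2AK2 had 67.2, 67.4 and 68.1 CPM and 44.9, 38.1 and 62.6 CPM (log2 -0.48, SE 0.18, adjusted p = 0.0560), and ADAR 498, 512 and 502 CPM and 423, 377 and 456 CPM (log2 -0.27, SE 0.13, adjusted p = 0.161). In 3D, replicate 3 was the closest to the 2D libraries for all 3 genes, and without it EIF2AK2 was called (log2 -0.70, adjusted p = 0.00665, and between 0.00141 and 0.276 over all alternatives). The tested genes with at least 9000 exonic bases had a median log2 of -0.12 in LS513. In 3D their median deviation from the group mean was 0.08 in replicate 3 and -0.099 in replicate 2. The part of exonic length in the differences of EIF2AK2 and ADAR was not tested. With only the 6 libraries of LS513 in the fit, IFIH1 (adjusted p = 0.0111), EIF2AK2 (0.0352) and ADAR (0.0268) were called, and with every gene of at least 1 count kept, IFIH1 (0.0313) and EIF2AK2 (0.00141) were. The replicate block also gave calls for IFIH1 (adjusted p = 0.0421) and EIF2AK2 (0.0362). At an unadjusted p under 0.05, edgeR and DESeq2 each gave 2 of the 7 members, IFIH1 and EIF2AK2, as lower, and with adjustment DESeq2 called 0. Here too the shares of all genes without adjustment or with DESeq2 were not counted.

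The remaining members of LS513 showed no called change. DDX58 was at 6.02, 5.32 and 5.67 CPM in 2D and at 4.68, 4.97 and 5.61 CPM in 3D, and MAVS at 215, 222 and 237 CPM and at 208, 192 and 221 CPM. TMEM173 was at 3.35, 3.20 and 2.63 CPM and at 2.71, 3.52 and 1.59 CPM, and IRF3 at 97.5, 94.1 and 92.1 CPM and at 93.0, 108 and 88.3 CPM. The 95% intervals of the log2 differences went from -0.47 to 0.16 for DDX58, from -0.40 to 0.17 for MAVS, from -0.77 to 0.30 for TMEM173 and from -0.30 to 0.35 for IRF3. The groups overlapped for each of these genes. In LS513 the sensor genes DHX58, MB21D1 and TLR3 stayed at or under 3 counts in 3D as in 2D.

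A test of the difference between lines was run on the growth effect itself. Of the 10 members 6 were called, against 17.1% of all tested genes. They were DDX58 (adjusted p = 3.74e-09), IFIH1 (5.17e-06), EIF2AK2 (0.00105), ADAR (0.00837), DHX58 (0.0256) and TMEM173 (0.0356). DDX58 and IFIH1 had log2 changes of 2.61 and 1.74 in HCT116 and of at most 0.42 and 0.24 in the other lines, and EIF2AK2 and ADAR rose in HCT116 and fell in HT29 and LS174T. MAVS (adjusted p = 0.217), TLR3 (0.191), IRF3 (0.261) and MB21D1 (0.690) were not called, and MB21D1 was above the floor in HT29 alone. IRF3, MAVS and TLR3 therefore have a growth effect called in 1 line, without a shown difference from the other lines.

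The other genes of these pathways were counted from lists written by role. Over all tested genes, 16.8% were called higher and 12.3% lower in HCT116, 21.1% and 19.6% in HT29, 13.1% and 9.15% in LS174T and 13.7% and 9.9% in LS513, with medians of log2 between 0.00 and 0.02, and the counts of each list are read beside these shares. Among 20 other sensors, 15 were tested, and 8 were higher and 4 lower in HCT116, 4 and 6 in HT29, 1 and 5 in LS174T and 3 and 5 in LS513. In HCT116 these were 53.3% higher and 26.7% lower (median log2 0.43), both above the shares of all genes, and in the other lines 6.67% to 26.7% were higher and 33.3% to 40% lower (median log2 -0.12 to 0.11). Genes of the 2'-5'-oligoadenylate synthetase family had the smallest p, and of those named here OAS1 and OAS3 encode enzymes that make the activator of RNase L on double-stranded RNA. OAS1 went from 1.08 ± 0.157 to 44.2 ± 12.5 CPM (SD, n = 3) in HCT116 (log2 5.36, SE 0.25, adjusted p = 7.16e-13), and it was called higher in all 4 lines, with log2 changes of 1.80 in HT29, 0.99 in LS513 and 0.73 in LS174T. OASL rose by 3.88 in HCT116, 1.28 in HT29 and 1.35 in LS513. OAS3 rose by 1.81 in HCT116 and fell by 0.51 on the log2 scale in LS174T (adjusted p = 0.00796). OAS1 and OASL were thus higher in LS513, where none of the sensor genes was called.

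The adaptors, kinases and transcription factors of the pathways had 18 of 18 tested, with 8 higher and 1 lower in HCT116, 6 and 1 in HT29, 1 and 1 in LS174T and 6 higher in LS513. The share called higher was 44.4% in HCT116, 33.3% in HT29 and in LS513 and 5.56% in LS174T, against 16.8%, 21.1%, 13.7% and 13.1% of all genes, and the median log2 was between 0.10 and 0.27. IRF7, the interferon-induced relative of IRF3, rose from 4.15 ± 0.495 to 44.8 ± 12.8 CPM in HCT116 (log2 3.43, SE 0.22, adjusted p = 1.81e-10) and by 1.13 in LS513. MYD88, an adaptor of other Toll-like receptors, rose by 0.92 in HCT116. NLRX1, a mitochondrial regulator of MAVS signaling, rose by 0.88 in HT29, 0.60 in LS513 and 0.38 in HCT116. Of 18 regulators of RIG-I, MDA5 and MAVS, all tested, 5 were higher and 2 lower in HCT116, 2 and 5 in HT29, 2 and 1 in LS513 and 2 and 1 in LS174T. That was 27.8% higher in HCT116 and 11.1% in each other line, against the same shares of all genes, with median log2 between -0.12 and 0.11. TRIM14, which binds MAVS, rose by 0.63 in HCT116, and RNF135, a ubiquitin ligase of RIG-I, rose by 0.59 in HT29. TRIM31, a ubiquitin ligase of MAVS, went from 100.5 ± 18.2 to 350 ± 15.6 CPM in LS513 (log2 1.80, SE 0.15, adjusted p = 1.47e-08) and rose by 1.37 in LS174T, while HCT116 had means under 0.1 CPM.

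Regulators of STING and cGAMP, 15 of 15 tested, had 5 lower and 2 higher in HCT116, 6 and 1 in HT29, 5 and 2 in LS513 and 3 and 1 in LS174T. The share called lower was 33.3% in HCT116, 40% in HT29, 33.3% in LS513 and 20% in LS174T, against 12.3%, 19.6%, 9.9% and 9.15% of all genes, and the median log2 was between -0.28 and -0.05. PRKDC, the catalytic subunit of DNA-dependent protein kinase, fell in all 4 lines, by 1.22 on the log2 scale in HT29 and by 0.54 to 0.69 in the others. RNF5, a ubiquitin ligase that targets STING, rose by 0.98 in HCT116, 0.67 in LS174T and 0.43 in HT29. In LS513 it was not called (log2 0.29, adjusted p = 0.0861). A link of RNF5 with the rise of TMEM173 was not tested. ABCC1, which exports cGAMP, fell by 0.68 on the log2 scale in HT29. Of 15 nucleic acid disposal genes, 14 were tested, and 4 were higher and 2 lower in HCT116, 3 and 6 in HT29, 3 and 3 in LS513 and 1 and 2 in LS174T. The share called lower was 14.3% in HCT116, 42.9% in HT29, 21.4% in LS513 and 14.3% in LS174T, against the shares just given, and the median log2 was between -0.12 and 0.07. Those called higher were 28.6% in HCT116, 21.4% in HT29 and in LS513 and 7.14% in LS174T. Over all genes these shares were 16.8% in HCT116, 21.1% in HT29, 13.7% in LS513 and 13.1% in LS174T. The lysosomal nucleases DNASE2 and PLD3 were higher in 3D, DNASE2 by 0.91 in HT29, 0.84 in HCT116 and 0.60 in LS513, and PLD3 by 0.44 to 0.84 in all 4 lines. PNPT1, a mitochondrial RNA exonuclease, fell by 0.70 on the log2 scale in HT29, 0.54 in LS513 and 0.33 in LS174T.

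Around PKR, 14 of 14 listed genes were tested, and 2 were higher and 3 lower in HCT116, 1 and 6 in HT29, 4 and 2 in LS513 and 3 and 2 in LS174T. The share called lower was 21.4% in HCT116, 42.9% in HT29 and 14.3% in LS513 and in LS174T, against 12.3%, 19.6%, 9.9% and 9.15% of all genes, and the median log2 was between -0.23 and -0.02. DDIT3, the CHOP gene at the end of the eIF2 stress response, rose by 2.90 in LS513 (SE 0.38, adjusted p = 8.26e-06) and 1.26 in LS174T. EIF2S3, the gamma subunit of eIF2, fell by 0.43 on the log2 scale in HT29. The interferon genes that these pathways serve were scarce. Of 12 interferon ligands only IFNE was tested, without a call, and IFNB1 had 1 count in 24 libraries. IFNL1 had 31 counts over the 3 libraries of HT29 in 3D and 2 in 2D, and 13 counts over those of HCT116 in 3D and 1 in 2D, with 0 in LS513 and LS174T.

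The genes whose pattern was most like each member were found by Pearson's r of log2 CPM, centred on the mean of each line, over the 24 libraries and among 14606 genes with a mean of at least 1 CPM. For DDX58 they were PARP9 (r = 0.98), PLSCR1 (0.97) and IFIT1 (0.96), and for IFIH1 they were OAS3 (0.95), DTX3L (0.95) and STAT2 (0.92). DHX58 was closest to LINC02535, PQLC3 and TNFSF10 (0.93 each), TMEM173 to CAPN9 (0.89), CCS (0.86) and KIF12 (0.86), and TLR3 to FAM161B (0.85), TUBBP5 (0.82) and ALAD (0.81). MAVS was closest to ATG2B (0.95), PRR14L (0.93) and ZFHX3 (0.93), EIF2AK2 to HDAC4 and RUNX1 (0.92 each), and ADAR to TRIO (0.95), CAMSAP1 (0.94) and MON1B (0.94). IRF3 went with DPP7 (0.91), NAPRT (0.91) and TYSND1 (0.90), and MB21D1 with LARP1B (0.79), HJURP (0.73) and ZNF215 (0.72), which for MB21D1 rests on the 6 libraries of HT29. Among the members themselves, r was 0.95 between EIF2AK2 and ADAR and 0.94 between DDX58 and IFIH1, and -0.64 between MAVS and TMEM173. These values share libraries, depth and the contrast of 3D with 2D and are given as a description.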

How the data were processed

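Poly(A)-selected RNA of 24 libraries from 4 CRC cell lines was sequenced as single reads of 75 bases with a strand-specific kit. The authors trimmed reads with Trim Galore 0.4.1, aligned them with STAR to Ensembl 91, removed multi-mapped reads and deposited raw counts per gene from HTSeq-count 0.5.3, without normalization. The labels name hg19 as the build, while Ensembl 91 is on GRCh38, so coordinates here come from GENCODE 29 on GRCh38 by gene identifier. The options of HTSeq-count are not given in the sources used here. Each library has 8 technical replicates (7 used for HT29 in 3D, replicate 4), which were summed. Removing multi-mapped reads lowers genes with near-identical copies.

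Counts were filtered with filterByExpr, scaled by TMM and fitted with edgeR 4.0.16 in R 4.3.3 (robust quasi-likelihood, all 24 libraries, 8 group coefficients). Two-sided p-values were adjusted by Benjamini-Hochberg over 19387 genes, and a gene with an adjusted p under 0.05 was called. The 4 growth contrasts, their interaction with line and the 6 pairs of lines in 2D were tested. The scripts were tested on simulated data. All 10 members are named, with up to 3 genes of each other list by smallest adjusted p and the 3 genes most like each member. Of the genes this rule picks, 2 are not reported here. The members and lists were chosen with earlier results of these data known. Alternatives were DESeq2 1.42.0, its size factors in edgeR, a replicate block, no filter beyond 1 count, only the libraries of the line or of 2D, technical replicate d left out, and each library left out. For the growth effect of a single member there were 12 alternatives, in which only the 6 libraries of the line compared were left out in turn. Fits without a library of another line enter only the numbers of members called. No fold is given where both groups are at or under 3 counts. Exact intervals of ratios and floors cover the counting error of reads only and leave out the spread between libraries. Reads carry no molecular identifiers, so copies of 1 molecule were not told apart. The confidence intervals of differences come from the edgeR fit and include the spread between libraries, which may be technical. Same-numbered libraries of a line had correlations of their deviations between -0.15 and 0.09, so the numbers were not taken to pair samples.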

Additional observations from a re-analysis of the deposited data

Results flagged for a closer look

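For 6 sensor genes the effect of 3D growth differed between the lines in edgeR's interaction test. The adjusted p was 3.74e-09 for DDX58, 5.17e-06 for IFIH1, 0.00105 for EIF2AK2, 0.00837 for ADAR, 0.0256 for DHX58 and 0.0356 for TMEM173. For DDX58 and IFIH1 the line apart was HCT116, with log2 changes of 2.61 and 1.74. EIF2AK2 changed by 0.64 in HCT116 and by -0.70 in HT29, and ADAR by 0.36 and -0.37. DHX58 changed by 1.80 in HT29, 1.38 in HCT116 and 0.32 in LS174T, and TMEM173 by 0.69, 0.92 and 1.08 in these lines and by -0.23 in LS513. Over all 24 fits without 1 library, between 4 and 6 members were called in this test.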

How the results depend on the processing

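The called sensor genes numbered 7 each in HT29 and HCT116, 4 in LS174T and 0 in LS513, with 6 in the interaction test and 40 of 60 tests between lines in 2D. With the replicate block they were 4 in HT29 and 2 in LS513, against 7 and 4 in HCT116 and LS174T and 5 in the interaction test. For HT29 the block rests on fewer libraries, since only replicates 1 and 3 were present in both 2D and 3D. The check of the pairing gave no correlation above 0.1 for any same-numbered pair, and not every library correlated best with its own number. LS513 had 2 called members with all genes of at least 1 count and 3 with only its own 6 libraries, and LS174T had 1 with only its own. Leaving out 1 of the 24 libraries gave 3 (2D replicate 2 or 3D replicate 1) to 7 in HT29, 0 to 3 (3D replicate 2 of LS174T) in LS513, 5 to 8 in HCT116, 2 (3D replicate 2) to 4 in LS174T, 4 to 6 in the interaction test and 38 to 42 between lines. The cause of these changes was not tested. Fits with libraries left out also hold fewer libraries, and the part of this was not tested either. Among 420 alternative values of single members, 363 kept direction and call, 39 lost the call and 14 gained it. The direction turned in 4, none of them called, where leaving out 1 library gave log2 differences from -6.06e-06 (2D replicate 3) to 0.087 for IRF3 in HT29, from -0.51 to 0.026 (3D replicate 3) for TMEM173 in LS513, from -0.066 (3D replicate 2) to 0.088 for IRF3 in LS513 and from -0.18 (3D replicate 2) to 0.34 for IRF3 in LS174T. DDX58, IFIH1, DHX58 and TMEM173 in HCT116, DHX58, TLR3 and EIF2AK2 in HT29 and TMEM173 in LS174T were called in all 12 alternatives of their line. Depth limits MB21D1, DHX58 and TLR3 most, where 3 counts or fewer allow no fold change.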
